A study of Mus musculus with 22 samples.

Results

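The 10 genes described here are core parts of the circadian clock: Arntl, Clock, Npas2, Per1, Per2, Per3, Cry1, Cry2, Nr1d1 and Dbp. They were chosen by name, out of 21911 protein-coding genes, and each locus was taken as the gene with 20 kb on either side. Over the 22 libraries, 1012 of 1091168 peaks fell in these loci, and they merged into 45 of 104657 union regions. ATAC-seq maps open chromatin by the sites a transposase reaches. It was done on biotin-labelled adipocyte nuclei from frozen epididymal fat of male AdipoERCre x NuTRAP mice. All groups, controls included, carried a tamoxifen-inducible Cre driven in adipocytes and a nuclear tag, received tamoxifen at 4-5 weeks of age, and each replicate was 1 animal. In the short arm, C (n = 3, low-fat chow) and H (n = 3, high-fat diet for 12 weeks) were 18 weeks old, and CC_s (n = 3, controls) and HC (n = 3, high-fat diet for 12 weeks, then chow for 8 weeks) were 26 weeks old. In the long arm, CC_l (n = 2, low-fat chow) and HH (n = 3, high-fat diet for 25 weeks) were 31 weeks old, and CCC (n = 2, controls) and HHC (n = 3, high-fat diet for 25 weeks, then chow for 8 weeks) were 39 weeks old. During those last 8 weeks CC_s and CCC ate another chow, so both age and diet set them apart from the younger controls. The time of day of tissue collection is not given in the sources used here.

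The mammalian clock is a feedback loop. ARNTL pairs with CLOCK, or with its relative NPAS2, and the pair binds E-boxes to switch on Per and Cry genes, whose proteins then repress the pair. NR1D1 is a nuclear receptor that represses Arntl through ROR elements, and DBP is an output transcription factor that acts through D-boxes. Fat cells carry their own clock, which is known to time lipid metabolism.

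The total signal of peaks at Npas2 was lower after 12 weeks of high-fat diet than in controls of the same age. Differences of the same sign after 25 weeks did not pass the adjusted threshold. A region in intron 3 of Npas2 held a peak in all 3 C and both CC_l libraries, and in none of the 3 H and 3 HH libraries. A peak upstream of the gene carried a lower total signal in H than in C, and a similarly lower one in the older controls CC_s, where the difference from C was not called. Of the 10 genes, Npas2 was the one with regions or a promoter called in H against C. The Arntl, Clock, Per, Cry, Nr1d1 and Dbp promoters gave no call in any of the 4 comparisons of obese or formerly obese mice with controls of the same age. The result at the upstream peak rests on the summed signal of the peak and did not pass the threshold by its height, and the promoter call was lost without any of 4 single libraries, as described below.

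The 3 windows of 300 bp from GRCm38, centred on the median summits of peaks in 3 Npas2 regions, are printed because the values below turn on them: the upstream and intron 5 regions were called in H against C, and the intron 3 region held no peak there in H. Capitals mark AGGTCA or its reverse complement, the core letters of a ROR element. They lie at chr1:39192690-39192989 (upstream of the start), chr1:39288467-39288766 (intron 3) and chr1:39302306-39302605 (intron 5), on the plus strand, which is the strand of the gene, and none overlaps an exon. Introns were numbered on the transcript with the most exons, 21.
Npas2 upstream: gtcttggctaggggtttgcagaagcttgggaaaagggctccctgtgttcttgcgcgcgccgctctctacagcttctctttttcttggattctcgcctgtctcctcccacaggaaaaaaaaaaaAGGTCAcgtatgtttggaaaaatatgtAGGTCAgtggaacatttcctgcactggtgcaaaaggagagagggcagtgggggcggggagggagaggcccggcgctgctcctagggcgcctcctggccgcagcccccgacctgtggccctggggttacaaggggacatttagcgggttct
Npas2 intron 3: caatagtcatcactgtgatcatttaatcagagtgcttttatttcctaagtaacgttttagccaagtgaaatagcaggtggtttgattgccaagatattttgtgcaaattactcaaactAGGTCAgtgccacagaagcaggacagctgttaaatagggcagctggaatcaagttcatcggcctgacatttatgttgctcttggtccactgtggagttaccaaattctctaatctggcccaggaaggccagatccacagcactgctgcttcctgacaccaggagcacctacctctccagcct
Npas2 intron 5: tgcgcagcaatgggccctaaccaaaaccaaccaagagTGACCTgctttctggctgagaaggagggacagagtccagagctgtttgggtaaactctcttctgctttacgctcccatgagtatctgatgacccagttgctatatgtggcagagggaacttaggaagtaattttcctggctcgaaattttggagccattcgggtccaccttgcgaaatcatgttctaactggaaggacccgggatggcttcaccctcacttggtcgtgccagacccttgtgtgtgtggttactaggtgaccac

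The upstream window held AGGTCA 2 times, and each intronic window held it 1 time. Among 30285 windows made in the same way at regions with peaks in at least 11 libraries, 18.6% held it at least 1 time and 2.03% held it 2 times or more. The E-box CACGTG, its variant CACGTT and the D-boxes TTATGTAA and TTACGTAA were not found on either strand of these 3 windows.

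The summit of the upstream peak lies away from the start of Npas2 used here. It lay between -1516 and -1312 bp from that start (GENCODE vM21 basic set, base 39194212 of chromosome 1, upstream as negative) in all 22 libraries, and the start itself was covered by a peak in 3 libraries, C 1, C 2 and CC_l 2. The full GENCODE set holds another protein-coding start upstream of it, at base 39193731, which a peak covered in 5 libraries (C 3, H 2, H 3, CC_l 2 and HH 2). By contrast, a peak covered an annotated start of Clock in 20 libraries and of each of the other 8 genes in all 22. Promoter signal, the summed total signal of the peaks that touch a window of 2000 bp on each side of a start, therefore stands at Npas2 for this upstream peak alone in 20 libraries. In C 1 and C 2 it also holds a second peak, over the start, and in C 3 it holds 1 peak.

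**Figure D1:**
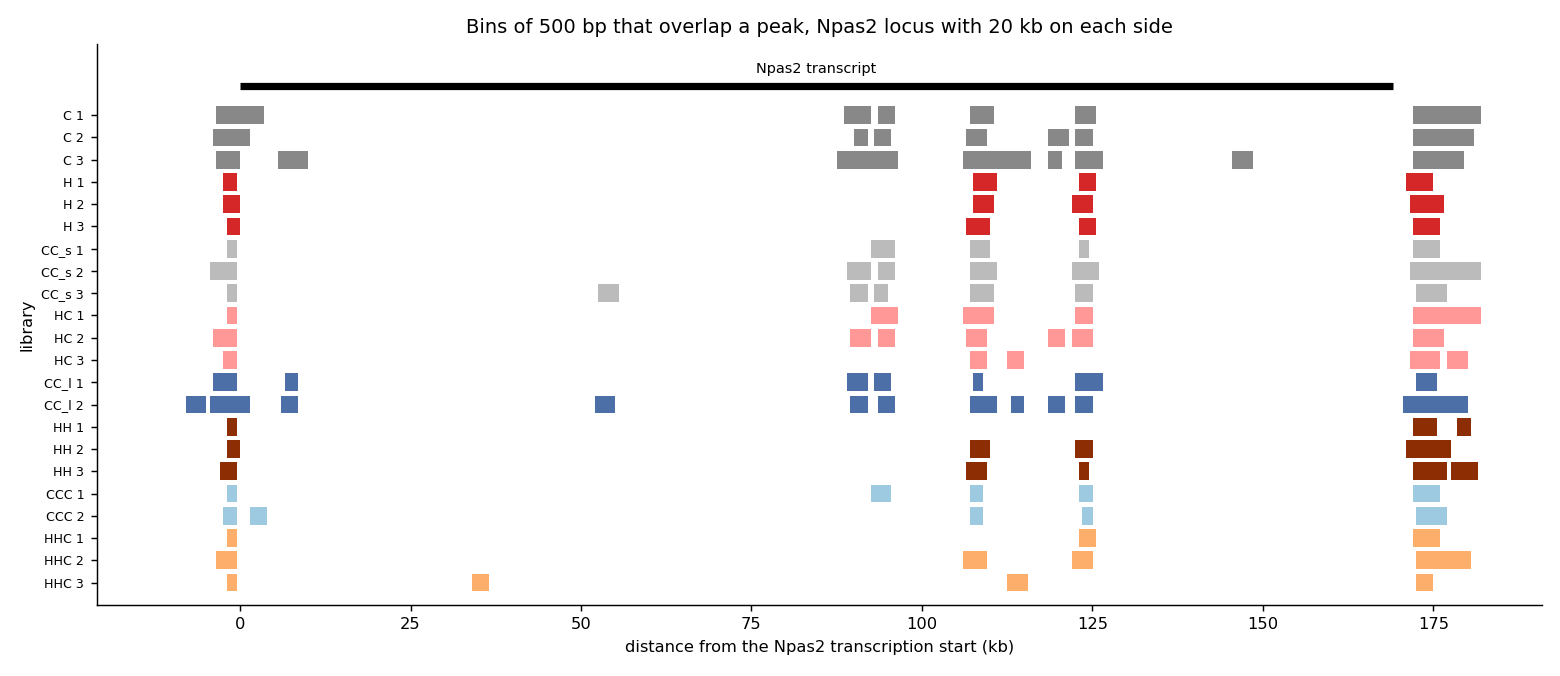
Peaks along the Npas2 locus, by distance from the transcription start in kb (x axis) and library (y axis). Each bar is a bin of 500 bp that overlaps a peak, and the black line is the transcript. The peak in intron 3, near 94.4 kb, is missing in the 3 H, 3 HH and 3 HHC libraries and in HC 3 and CCC 2.

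Values below are log2 total signal after each library was put on a common scale by rank, and a region without a ranked peak sits at a floor of 14.01 (14.30 for promoters). In the intron 3 region (chr1:39281950-39290676) the signal was 15.35, 15.26 and 16.02 in C and at the floor in H 1, H 2 and H 3. It was 15.59 and 15.24 in CC_l and at the floor in all 3 HH libraries. The groups did not overlap in either arm. Since H and HH were at the floor, no fold change is given. The region entered the tests only through the control groups, where it is high, so its p-values are not used as support and it is described by where peaks were present. Of 23 clock regions with a peak in every C library, it was the 1 with none in H, against 4.61% of all such regions. In the long arm 2 of 23 clock regions with a peak in both CC_l libraries held none in HH, both in Npas2 (the other at chr1:39200085-39203772, named after its values were seen), against 5.34% of all such regions. The intron 3 region was the 1 of 22 with a peak in every C and CC_l library and none in H and HH, against 1.04% of all regions. With 1 or 2 clock regions behind each share, nothing further is read from them.

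After weight loss the same region held a peak in 2 of 3 libraries in the short arm and in none of 3 in the long arm. Its signal was 14.58 in HC 1, 15.37 in HC 2 and at the floor in HC 3, against 14.46, 14.70 and 14.73 in CC_s. All 3 HHC libraries were at the floor, as was CCC 2, while CCC 1 was at 14.40. The older controls were lower than the younger ones in both arms, without a call. CC_s lay below C without overlap (difference -0.91 ± 0.28 SE, adjusted p = 0.542), and both CCC libraries lay below both CC_l libraries, with CCC 2 at the floor. H against C and CC_s against C share the C libraries, and HH against CC_l and CCC against CC_l share CC_l, so these values are not independent.

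In the region around the upstream peak (chr1:39189784-39198026) the signal was 15.73, 15.99 and 16.06 in C and 14.59, 14.46 and 14.55 in H. The difference was -1.40 ± 0.22 (SE, adjusted p = 0.00928). In CC_l it was 15.64 and 16.44, and in HH 14.56, 14.41 and 14.52 (difference -1.54 ± 0.37 SE, adjusted p = 0.186). The intron 5 region (chr1:39300267-39310083) was at 15.26, 15.45 and 16.37 in C and at 14.44, 14.60 and 14.68 in H (difference -1.12 ± 0.32 SE, adjusted p = 0.0493). The older controls, which also ate another chow, lay below the younger ones on average in these regions as well. CC_s lay below C by -1.11 ± 0.27 (SE, adjusted p = 0.453) around the upstream peak and by -1.06 ± 0.33 (SE, adjusted p = 0.544) in intron 5, and CCC lay below CC_l by -0.89 ± 0.41 (SE, adjusted p = 0.515) around the upstream peak. In intron 5 the libraries of CCC and CC_l overlapped (-0.50 ± 0.42 SE, adjusted p = 0.664). The intron 7 region (chr1:39316412-39320343) passed the unadjusted threshold in HH against CC_l with HH 1 at the floor (adjusted p = 0.21), and was -0.78 ± 0.28 (SE, adjusted p = 0.09) in H against C. Between control groups it was -0.79 ± 0.29 (SE, adjusted p = 0.613) in CC_s against C and -1.04 ± 0.28 (SE, adjusted p = 0.471) in CCC against CC_l, both without overlap.

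Of 25 clock regions tested in H against C, 3 met the rule for a call, all lower and all in Npas2, and 1 of them is the intron 3 region that entered only through C. Among the 24 with a peak in both groups, 2 were called, those around the upstream peak and in intron 5, against 3.19% of all regions with a peak in both groups called lower. The count of calls, intron 3 included, fell from 3 to 0 without C 2, with the scaling by shared features and with the 30000 strongest peaks, and to 1 without H 2. By maximum signal neither of the 2 was called, with -0.78 in intron 5. Over all regions tested, 3.36% were called lower at the same rule, an adjusted p under 0.05 with a log2 difference beyond 1. By the unadjusted rule, a p under 0.01 with a log2 difference beyond 1, 3 of 25 clock regions passed in H against C, where 8.52% of all regions did, and 3 of 23 passed in HH against CC_l, where 2.68% did. Of those with a peak in both groups, 2 of 24 passed in H against C (all such regions, 7.37%) and 2 of 22 in HH against CC_l (all such regions, 2.31%). The count of 3 in HH against CC_l fell to 1 without HH 2 or without HH 3. No clock region passed in HC against CC_s (0 of 25; all regions, 2.54%) or in HHC against CCC (0 of 24; all regions, 0.706%). With an unadjusted p under 0.05 and no limit on size, 0 of 25 did in HC against CC_s (all regions, 12.0%) and 2 of 24 in HHC against CCC (all regions, 6.14%). Between control groups, 2 of 26 passed in CC_s against C (all regions, 0.615%) and 1 of 24 in CCC against CC_l (all regions, 0.982%), all of them in Npas2, the last being the intron 3 region with CCC 2 at the floor. The 2 in CC_s against C, upstream and in intron 5, did not pass by maximum signal (-0.43 and -0.84). Nor did they with the scaling by shared features (-0.82 and -0.64) or with the 30000 strongest peaks (-0.66 and -0.81).

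**Figure D2:**
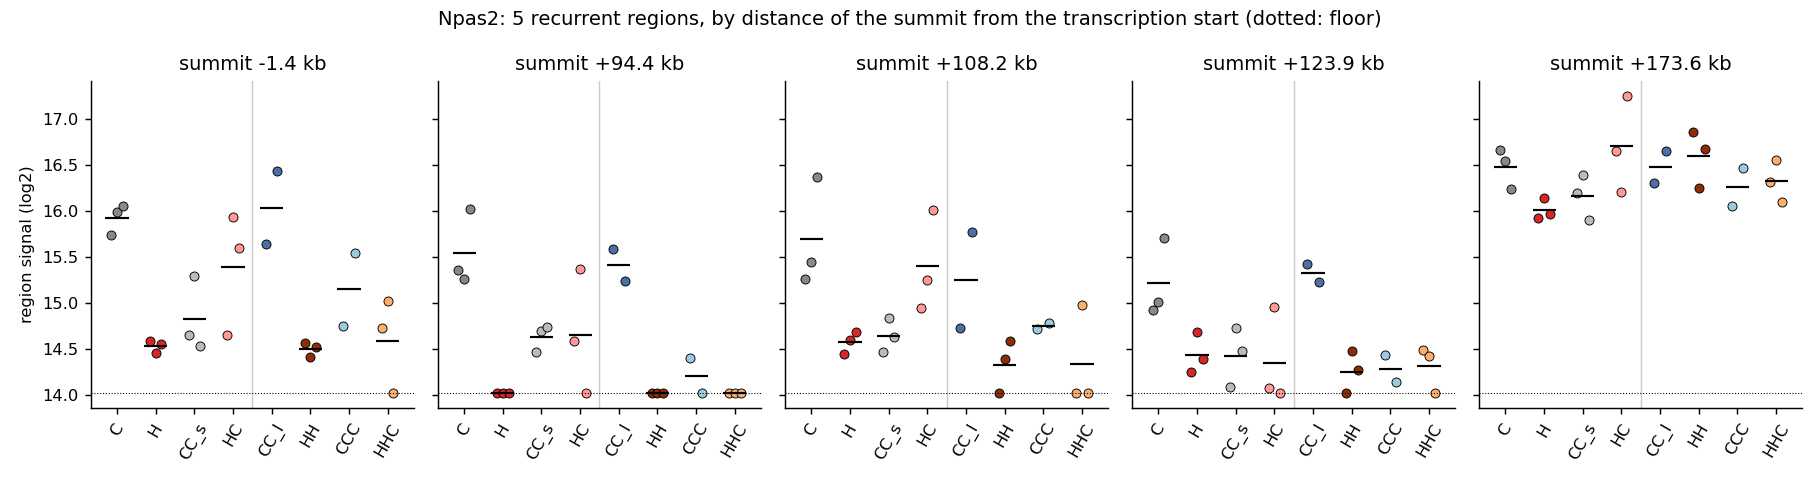
Log2 signal (y axis) of the 5 Npas2 regions with peaks in at least 10 libraries, by group (x axis). Points are libraries, black bars are group means and the dotted line is the floor of 14.01. The region downstream of the gene, over the start of Rpl31, holds a peak in all 22 libraries.

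Npas2 promoter signal was 15.73, 15.88 and 15.97 in C and 14.81, 14.75 and 14.79 in H. All H libraries lay below all C libraries, by -1.07 ± 0.13 (SE, adjusted p = 0.0211). The call was lost (0 promoters called) with the replicate block, with all libraries of the arm in the fit, and without any of C 2, C 3, H 1 or H 2. It was 15.68 and 16.44 in CC_l against 14.65, 14.47 and 14.91 in HH (-1.38 ± 0.30 SE, adjusted p = 0.313). The older controls were also low, with 14.69, 15.03 and 14.44 in CC_s and 14.64 and 14.83 in CCC, below every library of C and CC_l. Against the younger controls the differences were -1.14 ± 0.20 (SE, adjusted p = 0.501) for CC_s and -1.33 ± 0.31 (SE, adjusted p = 0.584) for CCC. By maximum signal these were -0.50 and -0.63, and neither passed the unadjusted rule. HC held 14.57, 15.97 and 15.67, which spanned the range of both levels (0.68 ± 0.39 SE against CC_s, adjusted p = 0.77), and HHC held 14.67, 14.80 and 14.76 (0.01 ± 0.22 SE against CCC, adjusted p = 0.996).

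In H and HH the upstream peak was also narrower than in C and CC_l. It was 2.68, 2.82 and 3.02 kb wide in C and 1.36, 1.63 and 1.47 kb wide in H, and it was 2.90 and 5.57 kb in CC_l and 1.16, 1.49 and 1.69 kb in HH. In the older controls it was 1.21, 3.47 and 1.24 kb wide in CC_s and 1.21 and 1.56 kb wide in CCC, so most of them were as narrow. Width and signal did not always go together, since the peak was 3.47 kb wide in CC_s 2 and 2.44 kb in HHC 2, where promoter signal was 15.03 and 14.80. By the maximum signal in place of the total, the Npas2 promoter difference between H and C was -0.11 and that between HH and CC_l was -0.73, and neither passed the unadjusted rule. The region around it differed by -0.28 and -0.78. With the 30000 strongest peaks of each library alone, the Npas2 promoter difference in H against C was -0.45 and did not pass.

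Library enrichment, the median peak maximum over the lowest, was 6.82 to 8.92 in C and 4.70 to 6.40 in H, so it moved with this comparison. It was 7.30 to 7.42 in CC_s, inside the range of C. In HC 3 and HHC 3, which stood apart from the other libraries, it was 2.43 and 2.25, and without them the counts of clock regions and promoters that passed in HC against CC_s and HHC against CCC were still 0. Promoters of 12 adipocyte markers were above the floor in every library (12 of 12). Promoters of 6 mesothelial markers were above the floor in 1 to 4 cases in C, 0 to 1 in H, 1 to 2 in CC_l and 0 in HH, but in 2 to 5 in HHC, where Npas2 was low. Their mean log2 signal was 14.38 to 14.89 in C, 14.30 to 14.32 in H, at the floor in HH and 14.82 to 15.41 in HHC. Over all libraries, 4 to 8 of 12 macrophage, 2 to 11 of 12 endothelial and stromal and 0 to 3 of 12 lymphocyte markers were above the floor. The mean log2 signal of the macrophage list was 15.04 to 15.59 in C and 14.78 to 15.11 in H, with 1 of 6 tested markers called lower and a median difference of -0.67. In the long arm 3 to 11 endothelial and stromal markers were above the floor in HH and 2 to 4 in CC_l (mean 14.56 to 15.67 and 14.49 to 14.55), and 5 to 9 in HHC and 2 to 5 in CCC. The mean of the lymphocyte list was 14.35 to 14.61 in C and 14.30 to 14.35 in H. The part of enrichment and of these other cells in the Npas2 differences was not tested. In such bulk nuclei, fewer cells with an open site and less opening per cell cannot be told apart.

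**Figure D3:**
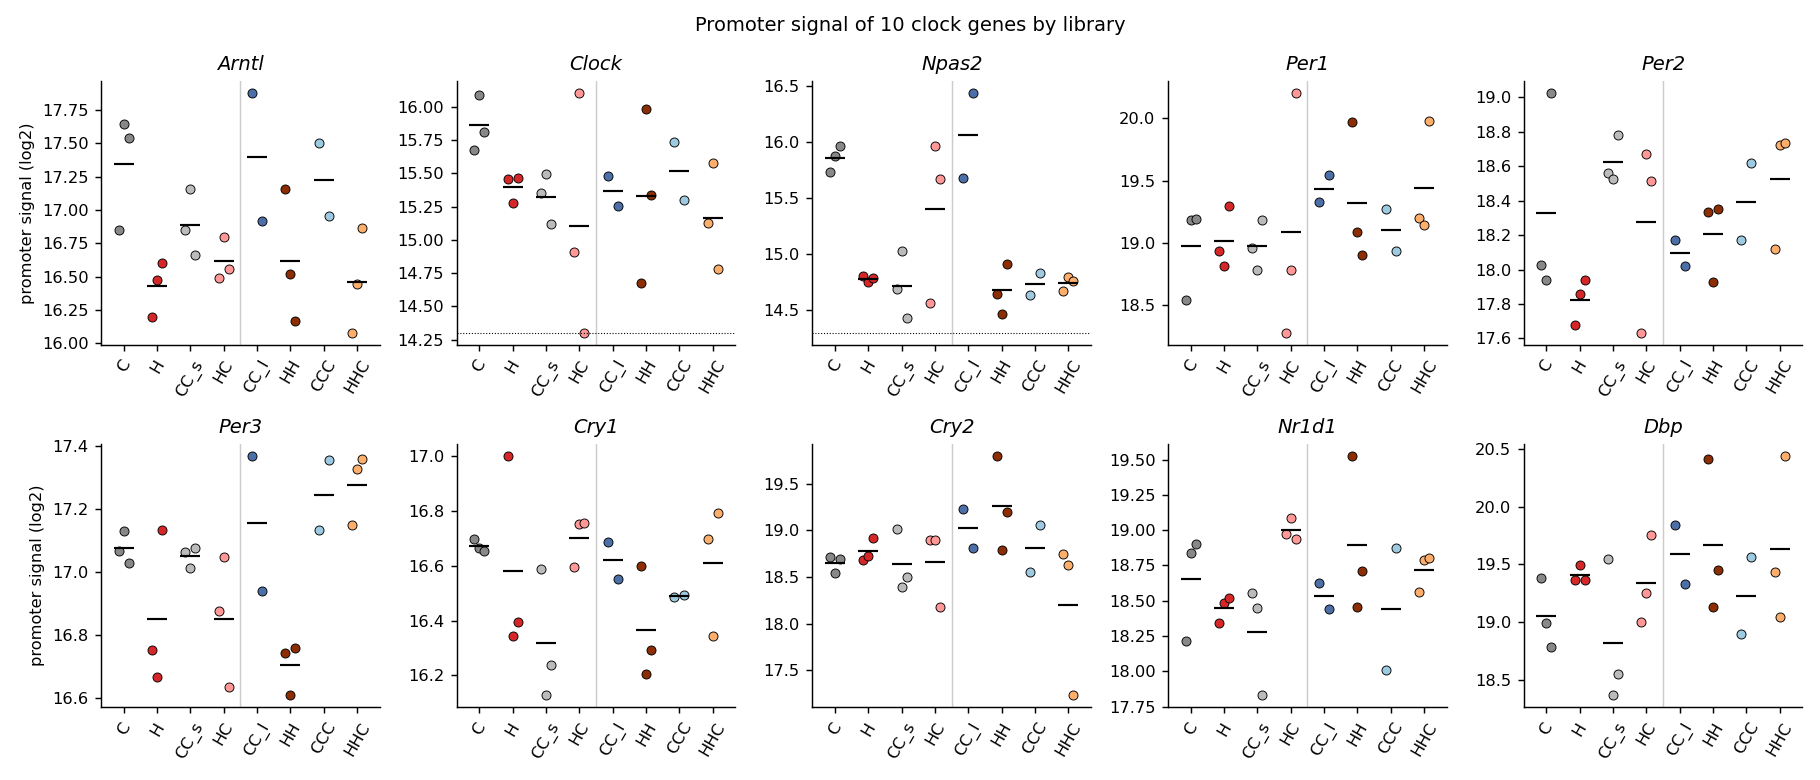
Promoter signal (y axis, log2) of the 10 genes by group (x axis). Points are libraries and black bars are group means, the grey line separates the short arm from the long arm, and the dotted line is the floor, drawn where it is in range; each panel has its own y scale, which does not start at 0. Npas2 is between 15.73 and 15.97 in C and between 14.75 and 14.81 in H.

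Arntl and Clock, the other activators, were lower in H than in C at their promoters without a call. Arntl promoter signal was 16.85, 17.64 and 17.54 in C and 16.20, 16.48 and 16.61 in H (-0.92 ± 0.26 SE, adjusted p = 0.128). Clock was at 15.68, 16.09 and 15.81 in C and at 15.46, 15.28 and 15.46 in H (-0.46 ± 0.16 SE, adjusted p = 0.18). Neither gene's libraries overlapped between the 2 groups, nor did those of Npas2, which makes 3 of 10 genes, against 28.6% of all promoters. The difference at Arntl was -0.78 ± 0.44 (SE, adjusted p = 0.771) in HH against CC_l, -0.76 ± 0.38 (SE, adjusted p = 0.92) in HHC against CCC and -0.27 ± 0.28 (SE, adjusted p = 0.788) in HC against CC_s. Clock differed by -0.04 ± 0.40 (SE, adjusted p = 0.992) in HH against CC_l. In CC_s against C, Clock differed by -0.54 ± 0.19 (SE, adjusted p = 0.942), without overlap, and Arntl by -0.45 ± 0.30 (SE, adjusted p = 0.942). In CCC against CC_l, Clock differed by 0.15 ± 0.24 (SE) and Arntl by -0.17 ± 0.43 (SE).

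Over the start of Arntl, a region of 38208 bp (chr7:113193489-113231696) was at 17.78, 18.09 and 18.25 in C and at 17.04, 17.30 and 17.37 in H. Its adjusted p was 0.0168, but the difference of -0.80 ± 0.16 (SE) was under the size required for a call. In HHC it was at 17.16, 17.34 and 17.18, against 17.90 and 17.91 in CCC (-0.68 ± 0.20 SE, adjusted p = 0.753). A region of 40972 bp inside the gene (chr7:113237565-113278536) had the smallest p of the clock regions in both weight-loss comparisons. It differed by -0.84 ± 0.25 (SE, adjusted p = 0.753) between HHC and CCC and by -0.50 ± 0.23 (SE, adjusted p = 0.435) between HC and CC_s. The next clock region in HC against CC_s was that of Npas2 intron 5, at 0.76 ± 0.39 (SE, adjusted p = 0.469).

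Per1, Per2, Per3, Cry1 and Cry2, which repress the activators, differed by between -0.50 and 0.13 in promoter signal in H against C, with adjusted p values of 0.411 or more. In HH against CC_l the same 5 genes differed by between -0.45 and 0.24. Per2 held no called region in H against C. The region over its start differed by -0.37 ± 0.11 (SE, adjusted p = 0.0496). The region downstream, over the start of Ilkap, was at 15.05, 15.29 and 15.09 in C, and in H at 14.42 in 1 library and at the floor in the other two, so no size of this difference or p is given.

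Nr1d1 was at 18.97, 19.08 and 18.94 in HC and at 18.55, 18.45 and 17.83 in CC_s, without overlap (0.72 ± 0.32 SE, adjusted p = 0.77). In H against C it differed by -0.20 ± 0.23 (SE). Dbp differed by 0.36 ± 0.20 (SE, adjusted p = 0.359) in H against C and by 0.08 ± 0.43 (SE) in HH against CC_l.

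At promoters, 1 of 10 members was called in H against C, where 1.97% of all promoters were. By the unadjusted rule 1 of 10 passed in H against C (all promoters, 4.0%), 0 in HC against CC_s (1.37%), 1 in HH against CC_l (1.8%), 0 in HHC against CCC (0.866%), 1 in CC_s against C (0.476%) and 1 in CCC against CC_l (1.2%), and Npas2 was the member in each case. The effect of obesity or of weight loss did not differ between the arms at an adjusted p under 0.05 for any member's promoter, locus or regions. Over all promoters 8 of 13850 did for obesity and 0 of 14186 for weight loss, where 235 had an unadjusted p under 0.05. Over all regions none of 41045 and 40970 did, with 2216 and 844 at an unadjusted p under 0.05.

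**Figure D4:**
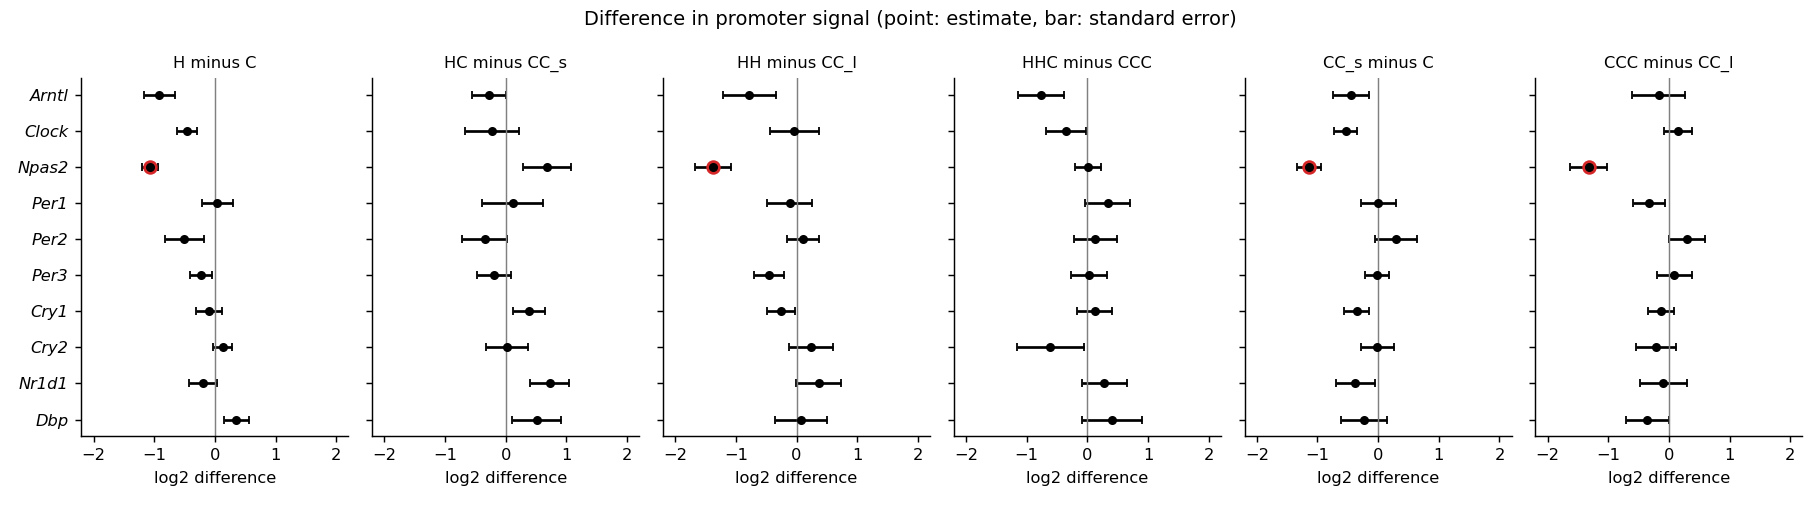
Difference in promoter signal (x axis, log2) of each gene (y axis) in the 4 comparisons and the 2 comparisons of control groups. Points are estimates, bars are standard errors and red marks an unadjusted p under 0.01 with a difference beyond 1, which holds for Npas2 in 4 of the 6 panels.

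The genes differed widely in how open they were. Dbp ranked highest, with a median promoter rank of 228 of 21911, followed by Per1 (297.5), Cry2 (513.5), Nr1d1 (610.5) and Per2 (903.5). Per3 (3203.5), Arntl (3962.5), Cry1 (4849), Clock (9679.5) and Npas2 (11410) ranked lower. In each library 12422 promoters were ranked and the rest sat at the floor, so Npas2 was near the low end of those ranked. Ranks use the total signal of whole peaks, which grows with peak width, and neighbours share the wide peaks. The region over the Dbp start also covers the starts of Car11, Fam83e, Rpl18, Spaca4 and Sphk2, and that over Nr1d1 covers those of Casc3, Msl1 and Thra. The values at these loci therefore do not belong to 1 gene alone. The median of the summits lay at -159 bp from the nearest start at Arntl and at -145 bp at Dbp.

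The share of a locus covered by peaks also ranged widely. Peaks covered a median of 81.1% of the Nr1d1 locus, 71.0% of Per1, 6.13% of Npas2 and 5.25% of Clock. In C the Npas2 locus was covered to 12.4%, 10.9% and 19.0%, and in H to 4.79%, 5.22% and 4.60%, a difference of -9.26 ± 2.36 percentage points (SE, adjusted p = 0.0972). At Npas2 the difference was -7.16 ± 3.04 percentage points (SE, adjusted p = 0.765) in HH against CC_l. Between control groups it was -5.99 ± 3.02 (SE) in CC_s against C, with overlap, and -7.19 ± 3.31 (SE) in CCC against CC_l, without overlap. Arntl was covered to 35.2%, 42.8% and 60.7% in C and to 24.6%, 24.2% and 24.7% in H (-21.7 ± 6.79 percentage points SE, adjusted p = 0.143). Per2 (-16.8 ± 5.28 percentage points SE, adjusted p = 0.144) and Cry2 (-24.7 ± 7.98 percentage points SE, adjusted p = 0.153) were also lower without overlap. These 4 of 10 loci compare with 16.1% of all loci that were lower without overlap. In HH against CC_l it was 3 of 10 (all loci, 14.8%).

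No member locus was called by covered share in H against C at an adjusted p under 0.05 (limma, 0 of 10; all loci, 0.816%), and 4 of 10 had an unadjusted p under 0.05, as did 19.6% of all loci. At an unadjusted p under 0.01, 1 of 10 passed in H against C (all loci, 7.67%; 5 without C 1 and 0 without any 1 of the H libraries) and 0 of 10 in HC against CC_s (1.6%), HH against CC_l (1.8%) and HHC against CCC (0.701%). All 10 members were covered less in HC than in CC_s, but so were most genes, since the difference was above 0 in 19.5% of loci. By summed locus signal, a measure added after the data were seen, Npas2 was called in H against C (-1.08 ± 0.16 SE, adjusted p = 0.0149), as were 5.73% of all loci. Its mean by this measure was 18.21 in C, 17.13 in H and 17.34 in the older controls CC_s. In the long arm it was 18.28 in CC_l, 17.26 in HH and 17.35 in the older controls CCC.

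**Figure D5:**
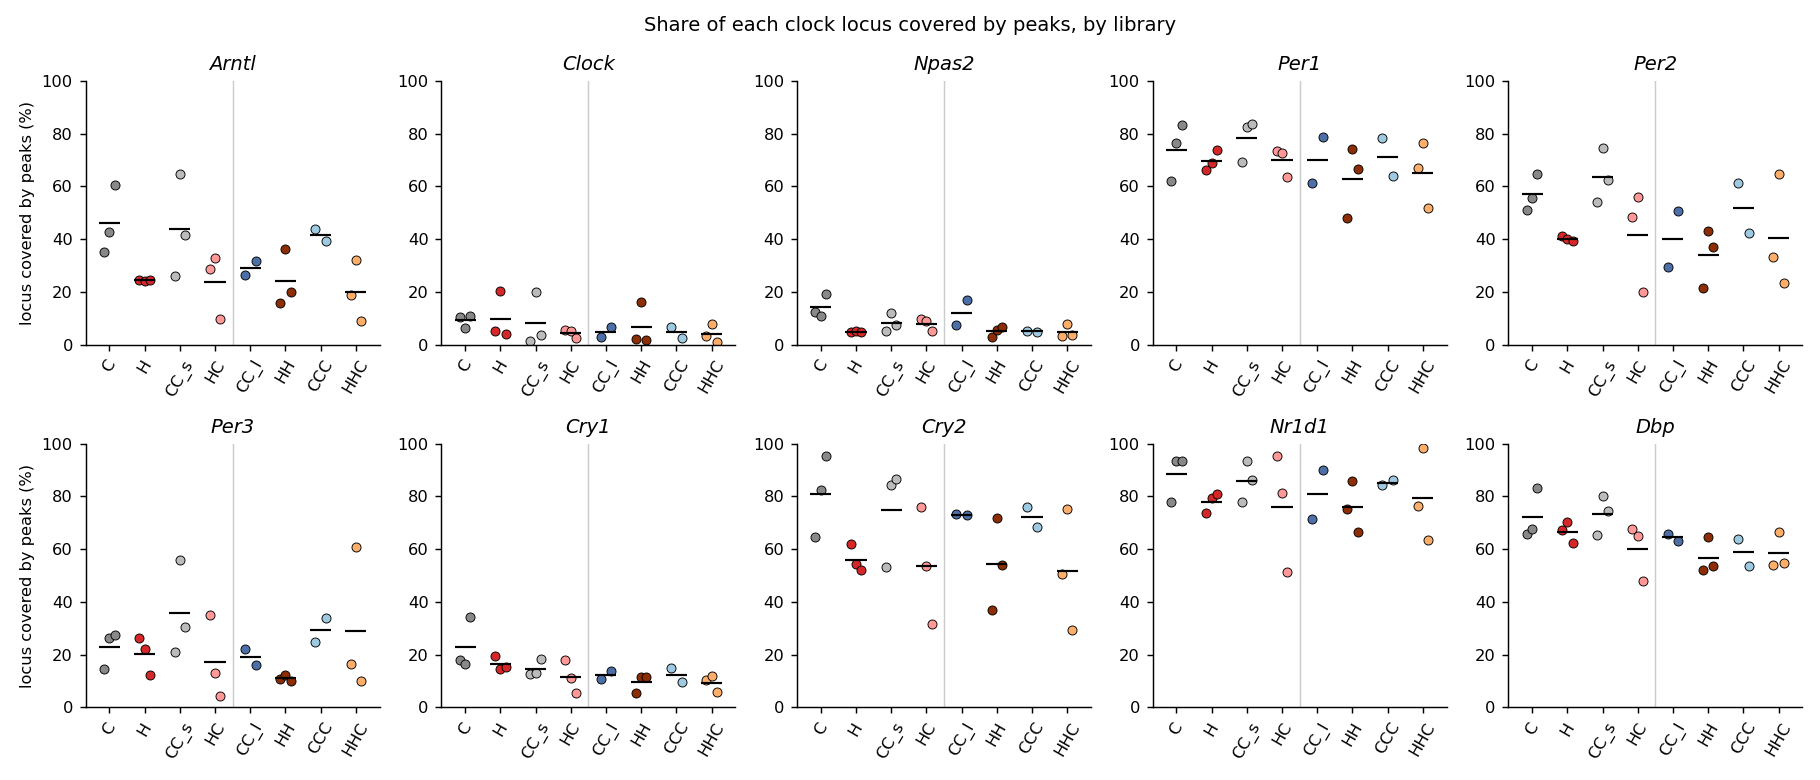
Share of each locus, the gene with 20 kb on each side, covered by peaks (y axis, percent) by group (x axis). Points are libraries and black bars are means. At Npas2 the 3 H libraries are at 4.60% to 5.22% and the 3 C libraries at 10.9% to 19.0%. The older controls are at 5.05% to 12.0% (CC_s) and 4.67% to 5.27% (CCC), and CC_l at 7.57% to 16.8%.

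Of 23 further genes of the clock, 2 promoters were called in H against C, both lower, where 0.962% of all promoters were called lower. Usp2, a deubiquitinase that acts on clock proteins, was at 18.20, 18.12 and 17.78 in C and 16.85, 16.91 and 17.02 in H (-1.11 ± 0.18 SE, adjusted p = 0.038). Csnk1e, a casein kinase that phosphorylates PER proteins, was at 16.07, 16.77 and 16.46 in C and 14.61, 15.10 and 14.59 in H (-1.67 ± 0.24 SE, adjusted p = 0.0275). Nampt, an enzyme of NAD synthesis, passed the unadjusted rule but not the adjusted one, at -1.23 ± 0.33 (SE, adjusted p = 0.117). The median difference of the 23 was -0.42 in H against C, where it was 0.03 for all promoters, but 0.06 in HH against CC_l, with 9 of 23 below 0, and 0.18 in CCC against CC_l. None passed in HC against CC_s, HH against CC_l, HHC against CCC or CC_s against C, and Csnk1e passed in CCC against CC_l (1.79 ± 0.39 SE, adjusted p = 0.584; 1.2% of all promoters passed).

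Promoter sequences of the 5 genes with the smallest p in any of the 4 comparisons are shown, as RefSeq gives them for GRCm38.p6, from 250 bases before the start to 50 after. The first listed promoter was taken for Arntl and Clock, and 9 of the 10 genes had an entry. Capitals mark any of the 5 motifs named above, on either strand.
Npas2, chr1:39194022-39194321, plus strand: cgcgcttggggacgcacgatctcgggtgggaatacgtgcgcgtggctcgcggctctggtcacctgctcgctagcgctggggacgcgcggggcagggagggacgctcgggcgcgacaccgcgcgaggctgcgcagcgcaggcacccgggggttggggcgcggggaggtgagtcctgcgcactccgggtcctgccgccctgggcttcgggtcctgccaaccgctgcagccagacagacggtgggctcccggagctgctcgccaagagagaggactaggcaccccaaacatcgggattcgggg
Arntl, chr7:113207215-113207514, plus strand: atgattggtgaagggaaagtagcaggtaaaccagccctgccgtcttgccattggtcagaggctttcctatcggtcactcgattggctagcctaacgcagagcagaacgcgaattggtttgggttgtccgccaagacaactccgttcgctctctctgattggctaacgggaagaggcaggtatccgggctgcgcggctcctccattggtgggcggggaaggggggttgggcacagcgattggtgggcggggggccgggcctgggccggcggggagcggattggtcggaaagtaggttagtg
Clock, chr5:76304743-76305042, minus strand: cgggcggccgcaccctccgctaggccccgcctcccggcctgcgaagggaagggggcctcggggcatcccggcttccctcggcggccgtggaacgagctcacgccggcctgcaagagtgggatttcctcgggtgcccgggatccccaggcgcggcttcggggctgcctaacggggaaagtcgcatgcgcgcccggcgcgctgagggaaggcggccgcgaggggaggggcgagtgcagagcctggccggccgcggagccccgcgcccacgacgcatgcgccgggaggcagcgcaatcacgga
Nr1d1, chr11:98775328-98775627, minus strand: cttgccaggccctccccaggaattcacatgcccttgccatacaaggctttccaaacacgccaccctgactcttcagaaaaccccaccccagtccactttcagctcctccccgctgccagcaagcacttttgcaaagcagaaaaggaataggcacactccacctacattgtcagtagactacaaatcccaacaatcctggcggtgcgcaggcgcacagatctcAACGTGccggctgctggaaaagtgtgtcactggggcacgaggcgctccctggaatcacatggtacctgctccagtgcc
Dbp, chr7:45704997-45705296, plus strand: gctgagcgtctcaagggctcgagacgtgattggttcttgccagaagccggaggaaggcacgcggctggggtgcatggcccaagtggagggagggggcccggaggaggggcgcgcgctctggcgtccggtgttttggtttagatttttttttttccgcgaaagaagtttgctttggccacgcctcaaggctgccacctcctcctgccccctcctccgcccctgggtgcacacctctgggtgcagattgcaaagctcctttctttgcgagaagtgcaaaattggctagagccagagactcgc

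Of these 5, the Nr1d1 promoter alone held any of the motifs, 1 match to CACGTT. Of the 9 genes with an entry, CACGTG was found in 2 (Per1 and Cry1) and in 7.15% of 32851 promoters, and CACGTT in 3 (Cry1, Cry2 and Nr1d1) and in 4.68%. TTATGTAA was found in Per3 and in 0.938% of promoters, TTACGTAA in no member and in 0.119%, and AGGTCA in 3 (Per1, and the promoters of Arntl and Clock listed later) and in 16.3%. These shares are by promoter. Counted so, the members held the motifs, in the order given, in 2, 3, 1, 0 and 3 of their 13 promoters. Across the whole loci there were 148 E-boxes CACGTG, of which 31 lay in bases that peaks covered in all 22 libraries. These bases made up 8.96% of the loci. At Nr1d1, 12 of 15 E-boxes lay in such bases, which made up 36.4% of that locus, and at Npas2 none of 32 did, where they made up 1.32%.

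Promoter signals of the members were compared over libraries in 3 relations. Nr1d1 and Dbp gave a Pearson r of 0.499 (n = 22, permutation p = 0.0194, adjusted p = 0.0583) and a Spearman rho of 0.328 (permutation p = 0.137, adjusted p = 0.412). Without the 2 libraries farthest from the median of Nr1d1 the r was 0.163, so the relation rests on those libraries. It was 0.24 in the short arm and 0.736 in the long arm. Arntl gave an r of -0.0485 with Dbp (permutation p = 0.833, rho -0.0616, permutation p = 0.785) and of 0.0948 with Nr1d1 (permutation p = 0.674, rho 0.11, permutation p = 0.626). The adjusted values were 0.833 for both r and 0.785 for both rho. Without the 2 farthest libraries, r was -0.132 with Dbp and 0.0617 with Nr1d1. As deviations from the group means, r was 0.505 for Arntl with Nr1d1 (rho 0.581), 0.466 for Nr1d1 with Dbp (rho 0.416) and 0.262 for Arntl with Dbp. With the group means removed the 22 deviations are not independent of each other, so no p-value is given for them. By maximum signal, Arntl with Nr1d1 gave 0.0168 over libraries. Of genes over 1 Mb away, the promoter most like Dbp across the 22 libraries was that of Ccnd3 (r = 0.975), that most like Cry2 was Nrm (r = 0.901) and that most like Per1 was Zfp438 (r = 0.842), as the highest of 12437 promoters compared.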

How the data were processed

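The deposited files are 1 peak list per library in the unit signal, with the total signal and maximum signal of each peak. The authors trimmed reads with Trim Galore 0.6.6, aligned them with Bowtie2 2.4.4 to mm10 (GRCm38), used SAMtools 1.13 and bedtools 2.30, and called peaks per library with SEACR 1.3 (stringent, threshold 0.01), without pooling. No normalization is stated and the lists hold no counts, so depth is unknown. The number of unmatched columns was 0, and 22 mitochondrial peaks were set aside.

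Peaks that overlapped were merged into regions. Regions (30083 ranked), promoters (12422 ranked) and summed locus signals were rank-mapped onto the mean sorted log2 signal. A promoter was 2000 bp on each side of a protein-coding start (GENCODE vM21 basic set). A feature was tested where it exceeded the floor in at least the number of libraries of the smaller group, with limma 3.58.1 (R 4.3.3, eBayes with trend) on the libraries of the 2 groups. P-values were adjusted over all features by Benjamini-Hochberg. A call needs an adjusted p under 0.05 and a log2 difference beyond 1 (covered share: no size limit). Differences between arms were tested as an interaction. The sample descriptions number the short and the long arm in separate series. What these mark is not stated, and they cannot be told apart from duration. Correlations used 100000 permutations, two-sided.

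Replicate numbers were tested for pairing by correlating deviations from group means over 27820 regions. C and CC_s correlated at 0.422, 0.333 and 0.315 for the 3 numbers, which by rule counts as paired, though the animals differ. The other pairs did not meet the rule. The tests were checked on simulated data. Members, lists and rules were chosen with earlier results of these data known. Named regions are, in each of the 4 comparisons, the calls (up to 6) or, with none called, the 2 of smallest p. The Npas2 intron 7 region and the Per2 regions fall outside this rule and were named after their values were seen. Alternatives were other scalings, signal measures, filters, windows and flanks, the replicate block and leaving out each library. Further clock genes are named if they passed the unadjusted rule (up to 5 a pair; 1 is not reported here), and the 3 most alike genes by r. Python 3.11.15, numpy 2.4.6, pandas 2.3.3, scipy 1.17.1 and SAMtools 1.23.1 were used for the rest.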

Additional observations from a re-analysis of the deposited data

Results flagged for a closer look

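At 2 Per2 regions the effect of obesity differed between the arms at an unadjusted p under 0.05, and neither passed the correction over all regions. In the region downstream of Per2, over the start of Ilkap, the difference in H against C minus that in HH against CC_l was fitted as -1.24 (limma interaction). All 3 H libraries lay below all 3 C libraries there, at 14.42 in 1 and at the floor in the other two. Values at the floor are set there, so the fitted value is not a measured size. HH held 14.70, 15.25 and 15.07, which overlapped CC_l at 14.40 and 15.12. In the region over the start of Per2 the difference in H against C minus that in HH against CC_l was -0.41 ± 0.15 (SE, adjusted p = 0.882). No group holds 4 libraries or more, so single libraries were not screened as outliers.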

How the results depend on the processing

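The Npas2 result depended on how a peak was measured. Clock regions called in H against C fell from 3 to 1 with the maximum signal (the intron 3 region, which holds no peak in H) and to 0 with the scaling by shared features or the 30000 strongest peaks; the unadjusted count fell from 3 to 1, 0 and 0, and that in HH against CC_l from 3 to 1 under each. With the 30000 strongest peaks the intron 3 region could not be tested, and 1 region passed in HHC against CCC. The Npas2 promoter call fell to 0 with the maximum signal, shared features, the 30000 strongest peaks, all libraries of the arm or the replicate block, and the unadjusted promoter count in H against C was 0 under the first 3 and 2 with the share of summed signal. In HH against CC_l it was 0 with the maximum signal and the 30000 strongest peaks. With the replicate block, HH against CC_l held 1 region and 0 promoters. The block called 2 clock regions in H against C and did not move the other counts by over 1.5 times. In CC_s against C, where the numbers paired, the block left 2 clock regions and 1 promoter and raised the counts over all regions from 187 to 282 and over all promoters from 60 to 134; in CCC against CC_l, crossing the numbers, added after seeing the data, left 1 region and 0 promoters. Leaving out 1 library at a time, H against C held 0 to 3 called regions (0 without C 2, 1 without H 2), 2 to 4 unadjusted regions, 0 to 1 called promoters (0 without any of C 2, C 3, H 1 or H 2), 1 to 2 unadjusted promoters (2 without C 1), 0 to 5 loci (5 without C 1, 0 without any H library) and 0 to 1 called loci (1 without C 1). HH against CC_l held 1 to 2 regions (1 without HH 2 or HH 3) and 0 to 1 promoters (0 without CC_l 2, HH 1 or HH 2; without a CC_l library the lone sample left is assumed to vary like HH), and HC against CC_s 0 to 1 promoters (1 without HC 1). The locus count in H against C was 0 with no flank or a flank of 10 kb, and 2 relative to the length covered. In correlations, Arntl with Dbp was 0.262 as deviations from group means and 0.234 in the long arm, Arntl with Nr1d1 0.505 and -0.0608, and Nr1d1 with Dbp 0.0053 by maximum signal, 0.24 in the short arm and 0.163 without the 2 farthest libraries. Of the values for single genes and regions, none that passed the unadjusted rule reversed; 1729 stayed on their side of it, 82 no longer passed, 14 newly passed and 217 changed sign without passing. The other causes were not tested. Depth is unknown, and groups of 2 or 3 libraries limit the precision.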
